A study of Gossypium hirsutum with 16 samples.

Results

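The response of the short-branch cotton strain JX to silencing of GhBRC1 was followed in 8 mRNA libraries of seedling shoot apices, 4 from silenced and 4 from control plants. They are 8 of the 16 libraries of a study of upland cotton (Gossypium hirsutum), in which the other 8 come from the nulliplex-branch strain 3798, again 4 silenced and 4 control. JX silenced libraries are from the strain Jinxian-short branch with GhBRC1 silenced by VIGS, and JX control libraries are from the same strain and stage with the genotype given as control. What the control plants received is not given in the sources used here, nor is whether each library is a plant of its own. The p-values therefore reflect the spread between these samples alone, and that spread may be technical. Libraries were chosen by their titles, and genes by a level of 0.5 FPKM or more in at least 4 of the 8 libraries. FPKM is the fragments assigned to a gene, divided by its length and by the size of the library. Of 70422 gene IDs, 52660 passed, of which 23112 lie on chromosomes of the A subgenome, 23774 on chromosomes of the D subgenome and 705 on contigs, and 5069 are loci called newGene that carry no position.

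BRC1 is a transcription factor of the TCP family. In Arabidopsis, pea and tomato it acts inside axillary buds, where it restrains their outgrowth, and it is a meeting point of signals such as strigolactone and cytokinin. In virus-induced gene silencing (VIGS) a virus carries a piece of a plant gene into the plant, whose own RNA interference then lowers the matching transcript. In upland cotton the fruiting branches arise from axillary meristems, and strains with short fruiting branches differ from nulliplex-branch strains, whose flowers sit directly on the main stem. Upland cotton is an allotetraploid, so most genes are present as an A and a D copy. None of the IDs could be paired with a gene name from the sources used here. Neither the level of GhBRC1 itself nor any named pathway is therefore reported. The target gene could not serve as a check on the labels of silenced and control, and genes are given by their IDs, from which the chromosome is read.

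Total FPKM ranged from 561442 to 603167 in the 8 libraries. Relative to JX control 1, sequencing depth was 1.12, 0.921, 1.24 and 1.07 in silenced libraries 1 to 4, and 0.889, 1.14 and 0.890 in control libraries 2 to 4, while absolute depth is unknown. The fourth silenced library stood between the groups. The first principal component carried 62.2% of the variance. On it, silenced libraries 1 to 3 scored 77.5, 81.3 and 105, silenced library 4 scored 24.98 and the controls scored between -81.8 and -65.7. Silenced library 4 had a mean correlation across genes of 0.942 with the other silenced libraries and of 0.925 with the controls, where silenced libraries 1 to 3 reached 0.951 to 0.960 and 0.855 to 0.886. Results are therefore given with and without it, and what set it apart was not tested.

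The shoot apices of silenced JX plants differed from those of controls in a large part of the genes that could be tested. With all 8 libraries 15354 of 52660 genes changed, which is 29.2%, with 7573 higher (14.4%) and 7781 lower (14.8%) in silenced libraries (limma, adjusted p under 0.05). Without JX silenced 4, 19285 genes changed (36.6%), 8985 higher (17.1%) and 10300 lower (19.6%). Of the 15354 genes, 14807 (96.4%) were also called, in the same direction, without that library, 547 were lost and 4478 were gained, and 0 changed direction. The groups of 4 did not overlap in 29.9% of tested genes, in 7809 (14.8%) with the silenced libraries above and in 7931 (15.1%) with them below the controls. In bulk tissue, a lower level may mean fewer cells of a type or less RNA per cell, and these cannot be told apart. With JX silenced 4 kept, the balance of directions was close to even and turned with the setting. A fit to all 16 libraries gave 7551 higher and 7393 lower, and no filter on low values 8186 and 7706. Without JX silenced 4 falls outnumbered rises in every setting tried, such as 9320 higher and 9988 lower under median-ratio scaling. The median log2 change over all tested genes was -0.01 with and without JX silenced 4.

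Most of these changes were under 2-fold and more of the large ones were rises. A change of at least 2-fold was seen in 4383 genes (8.32% of those tested), 2259 higher (4.29%) and 2124 lower (4.03%), and the groups of 4 were apart in 4103 of them. Of the called genes, 5633 differed by less than 1.5-fold. At 4-fold or more 513 genes were higher and 257 lower, and at 8-fold or more 172 were higher and 85 lower. Without JX silenced 4 the counts were 2664 higher (5.06%) and 2858 lower (5.43%) at 2-fold, 10.5% in all, 635 and 407 at 4-fold, and 194 and 105 at 8-fold. Leaving out that library thus turned the balance at 2-fold, while rises outnumbered falls at 4-fold and 8-fold in both fits. Folds are on the log2(FPKM + 0.5) scale, which understates the change of genes at low levels.

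Abundant transcripts were called most often. Of 463 genes with a mean of 100 FPKM or more over the 8 libraries, 226 changed (48.8%), 106 higher and 120 lower, against 24.7% of the genes under 1 FPKM, 27.0% at 1 to 5 FPKM, 30.1% at 5 to 20 FPKM and 35.8% at 20 to 100 FPKM. Noise on this scale may differ with level and was not measured by class, so these shares do not compare the size of the response between levels. At 2-fold or more the shares were 14.3% in the genes at 100 FPKM or more and 7.08% at 20 to 100 FPKM. They were 6.15% at 5 to 20 FPKM, 10.2% at 1 to 5 FPKM and 10.7% in the genes under 1 FPKM. Falls outnumbered rises in every class but that under 1 FPKM, where 14.3% rose and 10.4% fell with all 8 libraries. At 5 to 20 FPKM 15.5% fell and 14.6% rose. In both of the highest classes falls led by more without JX silenced 4. Of the 463 genes 171 then fell and 112 rose. Of the 5625 genes at 20 to 100 FPKM 18.9% fell and 16.9% rose with all 8 libraries, and 31.6% fell and 19.1% rose without that library.

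**Figure D1:**
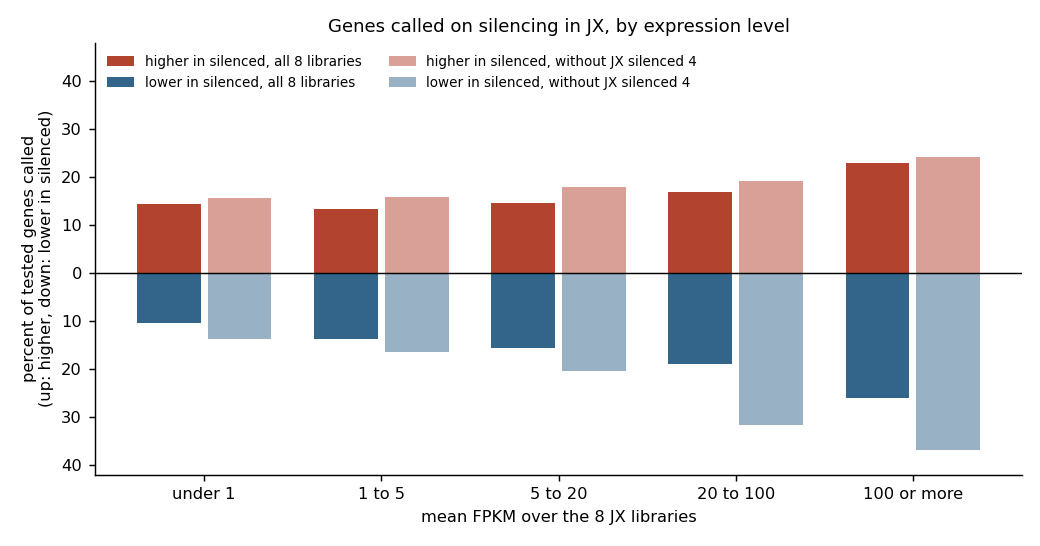
Percent of tested genes called higher (upward bars) or lower (downward bars) in JX silenced than in JX control libraries, in 5 classes of mean FPKM, with all 8 libraries (dark) and without JX silenced 4 (light). At 100 FPKM or more 22.9% were higher and 25.9% lower with all 8 libraries, and 24.2% and 36.9% without JX silenced 4.

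The genes with the smallest p were on in one group and off in the other, and JX silenced 4 stood with the other silenced libraries in each. These genes were picked for small p and groups apart with all 8 libraries. The gap between groups and the place of JX silenced 4 are therefore a description. Gh_A09G027500, on chromosome A09, was at 35.03, 34.03, 34.9 and 27.9 FPKM in silenced libraries 1 to 4, and listed at 0 in 3 controls and at 0.0434 FPKM in JX control 3. Gossypium_hirsutum_newGene_9749 was at 15.6, 17.1, 14.8 and 17.3 FPKM in silenced libraries and listed at 0 in all 4 controls. The groups were far apart in both genes. Gossypium_hirsutum_newGene_2353 was at 0.0510, 0, 0 and 0.0669 FPKM in silenced libraries, against 33.5, 41.9, 36.9 and 38.3 FPKM in controls. Gh_A07G084200, on chromosome A07, was listed at 0 in all 4 silenced libraries, against 19.2, 23.005, 20.7 and 16.9 FPKM in controls. The log2 change was 6.03 (SE 0.114) in Gh_A09G027500 and -6.17 (SE 0.111) in newGene_2353, with a limma adjusted p of 3.47e-09 for both, and no fold is given for the pair with a group at 0.

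Graded changes are those in genes at or above 1 FPKM in all 8 libraries. Of 41461 such genes 11472 changed (27.7%), against 29.2% of all tested genes. Of the 11472, 5468 were higher and 6004 lower, with a median change of 0.60 in size on the log2 scale. By 2-fold or more 963 rose and 1165 fell. Without JX silenced 4, 14857 of the graded genes changed (35.8%), 6706 higher and 8151 lower, with 1190 rises and 1614 falls of 2-fold or more. The largest rise was that of Gh_D05G286900, on chromosome D05, at 143, 76.6, 480 and 70.5 FPKM in silenced libraries 1 to 4, against 8.31, 1.24, 1.52 and 1.78 FPKM in controls. Its log2 change was 5.59 (SE 0.744, limma adjusted p = 0.00176), 5.91 without JX silenced 4, and between 4.99 (without JX silenced 3) and 6.12 (without JX control 1) with each library left out in turn. The groups were far apart, but the silenced libraries spread widely and JX control 1 was well above the other controls. Gossypium_hirsutum_newGene_6990 was at 528, 257, 594 and 287 FPKM in silenced libraries, against 6.91, 13.6, 4.36 and 11.01 FPKM in controls. The log2 change was 5.48 (SE 0.384, limma adjusted p = 4.49e-05). Here silenced libraries 2 and 4 were about level and below silenced libraries 1 and 3.

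The largest graded falls lay on D chromosomes. Gh_D10G210000, on chromosome D10, was at 17.4, 18.5, 11.2 and 25.1 FPKM in silenced libraries 1 to 4, against 140, 163, 279 and 279 FPKM in controls. Its log2 change was -3.53 (SE 0.287, limma adjusted p = 6.95e-05). JX silenced 4 was the highest of the silenced libraries, still far below every control. Gh_D05G386700, on chromosome D05, was at 2.56, 9.44, 2.31 and 4.52 FPKM in silenced libraries, against 26.5, 59.7, 38.9 and 64.4 FPKM in controls. The log2 change was -3.31 (SE 0.433, limma adjusted p = 0.00115). Its silenced libraries spread over several-fold without reaching the lowest control.

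Among the abundant genes the largest changes were rises of a pair with adjacent numbers on chromosome D06. Gh_D06G211200 was at 640, 216, 779 and 102 FPKM in silenced libraries 1 to 4, against 3.42, 0.139, 1.29 and 1.25 FPKM in controls. Gh_D06G211100 was at 292, 100.1, 472 and 91.2 FPKM in silenced libraries, against 9.35, 0.231, 0.649 and 1.06 FPKM in controls. Both were highest in silenced libraries 1 and 3 and lower in 2 and 4, and among the controls both were highest in JX control 1. The log2 change was 7.60 (SE 0.778, limma adjusted p = 6.40e-04) in Gh_D06G211200, and 8.15 without JX silenced 4, with a range of 7.14 to 8.15 over all libraries left out in turn. It was 6.64 (SE 0.899, limma adjusted p = 0.00187) in Gh_D06G211100, and 6.99 without JX silenced 4, with a range of 6.18 to 7.43, the highest without JX control 1.

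After Gh_D10G210000, the largest falls among abundant genes were in 2 genes in which JX silenced 4 lay closer to the controls than the other silenced libraries did. Gh_D10G052800, on chromosome D10, was at 65.5, 68.3, 28.7 and 187 FPKM in silenced libraries 1 to 4, against 206, 197, 252 and 249 FPKM in controls. Gh_A07G233200, on chromosome A07, was at 53.0, 52.5, 25.1 and 111 FPKM in silenced libraries, against 176, 145, 188 and 170 FPKM in controls. In both genes JX silenced 3 was lowest and JX silenced 4 highest of its group, just below the lowest control in the first. The log2 changes were -1.67 (SE 0.467, limma adjusted p = 0.0269) in Gh_D10G052800 and -1.67 (SE 0.366, limma adjusted p = 0.00949) in Gh_A07G233200, and -2.14 and -2.02 without JX silenced 4. Over all libraries left out in turn they ranged from -2.14 to -1.25 in Gh_D10G052800 and from -2.02 to -1.32 in Gh_A07G233200. For Gh_D10G052800 the call was lost without JX silenced 1 or 2 or without JX control 1, 3 or 4, and in the fit to all 16 libraries.

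**Figure D2:**
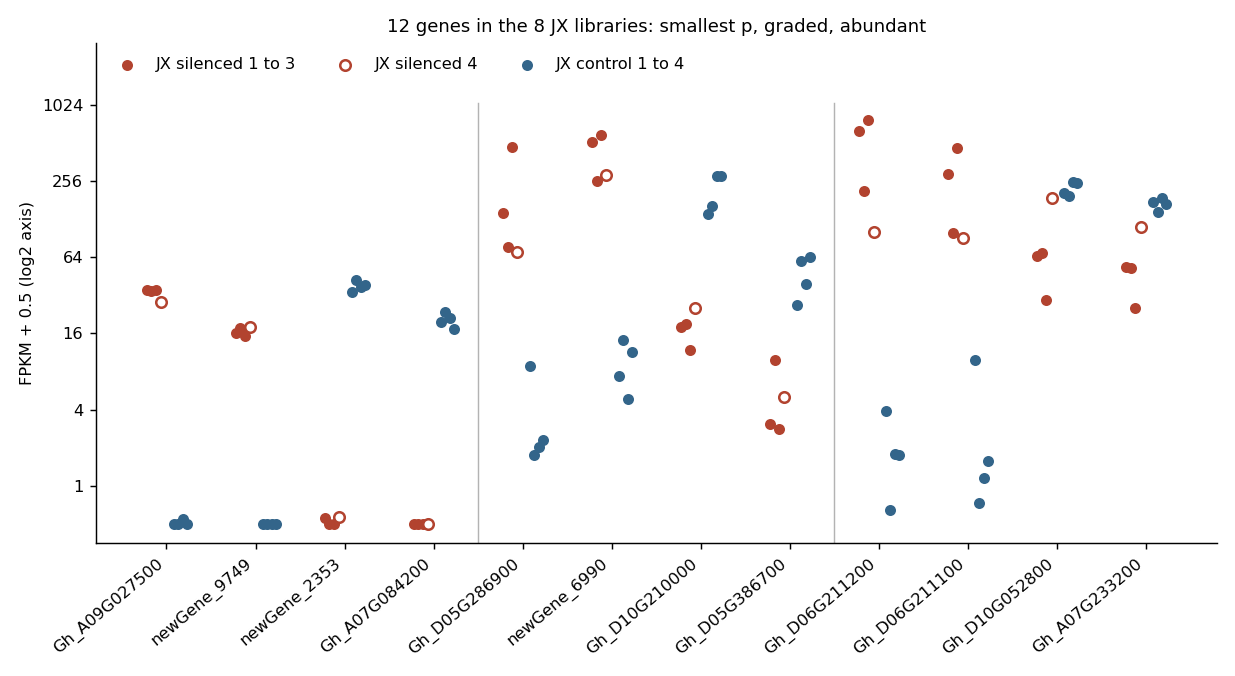
FPKM + 0.5 on a log2 axis of 12 genes in each JX library, silenced libraries (red, JX silenced 4 as an open circle) left of controls (blue). The first 4 genes have the smallest p, the next 4 are the largest graded changes and the last 4 the largest changes among abundant genes; JX silenced 4 lies at 187 FPKM in Gh_D10G052800, where the controls start at 197 FPKM.

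A gene that changed by 2-fold or more was followed, in the numbering of the IDs, by one that changed the same way in a larger share of cases than all IDs changed that way, though in 10.3% of cases at most with all 8 libraries. On the chromosomes 4.21% of tested IDs were higher at 2-fold or more and 4.10% lower. Of the 1972 higher IDs with a next tested ID, 10.3% had a next ID that was higher too and 3.90% one that was lower. Of the 1923 lower IDs, 6.60% had a next ID that was lower too and 4.78% one that was higher. At 4-fold or more, where 0.887% of IDs were higher and 0.397% lower, the next ID changed the same way after 10.1% of 416 higher and after 4.84% of 186 lower IDs. Runs of at least 3 such IDs at 4-fold or more numbered 9, of which 7 were higher and 2 lower in silenced libraries, and 11 without JX silenced 4, of which 8 were higher and 3 lower. Near-identical neighbouring copies can share reads, so their values need not be separate.

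In 2 of these runs the libraries of each group were close together, and JX silenced 4 lay with the other silenced libraries. On chromosome D11, Gh_D11G000300, Gh_D11G000400 and Gh_D11G000500 averaged 5.89 ± 0.635, 5.21 ± 0.938 and 6.53 ± 0.534 FPKM in silenced libraries, and 0.0622 ± 0.0318, 0.0152 ± 0.0140 and 0.00945 ± 0.0110 FPKM in controls (SD, n = 4 each). On chromosome A02, Gh_A02G016700 was listed at 0 in all 4 silenced libraries and at 2.62, 3.25, 2.42 and 2.29 FPKM in controls. Its neighbours Gh_A02G016800 and Gh_A02G016900 averaged 0.00479 ± 0.00958 and 0.0138 ± 0.00694 FPKM in silenced libraries, against 2.04 ± 0.114 and 4.16 ± 0.547 FPKM in controls (SD, n = 4 each). The members of each run were near 0 in one group and above 1 FPKM in every library of the other. The longest run, of 4 IDs from Gh_D05G386400 to Gh_D05G386700 on chromosome D05, was lower in silenced libraries. Its strongest member, Gh_D05G386600, was at 0.963, 1.07, 2.38 and 0 FPKM in silenced libraries 1 to 4, against 48.9, 74.3, 77.7 and 107 FPKM in controls. The log2 change was -5.79 (SE 0.491, limma adjusted p = 1.75e-04).

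In other runs the silenced libraries spread widely. Besides Gh_D06G211100 and Gh_D06G211200 the run on chromosome D06 held Gh_D06G210900, at 174, 62.1, 235 and 26.1 FPKM in silenced libraries 1 to 4, against 3.32, 0.369, 0.432 and 0.663 FPKM in controls. On chromosome A04 Gh_A04G022600 was at 14.2, 2.54, 12.7 and 2.59 FPKM in silenced libraries and listed at 0 in all 4 controls. Both had the order seen in the abundant pair on D06, with silenced libraries 1 and 3 above 2 and 4. On chromosome D10 Gh_D10G248100 was at 10.2, 48.7, 40.5 and 52.6 FPKM in silenced libraries, against 14.4, 0.297, 0.0571 and 0.194 FPKM in controls, and its groups overlapped through JX control 1. Its log2 change was 4.48 (SE 1.11, limma adjusted p = 0.0206), and without JX silenced 4 it was 4.25 and missed the threshold (limma adjusted p = 0.0545).

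Switched genes had 1 FPKM or more in all libraries of one group, while each library of the other group stayed over 8-fold under the lowest of those. With all 8 libraries 179 IDs were on in silenced and off in control libraries (0.254% of all 70422 IDs), and 89 were off in silenced and on in controls (0.126%). Defined without JX silenced 4, the sets were larger by over 1.5 times, with 279 on and 171 off. Leaving out any library can only keep or enlarge such sets. They were not counted with another library left out, so the growth is not a measure of JX silenced 4. With all 8 libraries, the 179 held 45 A, 71 D, 60 newGene and 3 contig IDs and lay on 25 chromosomes, with at most 11 on one of them (D11). The 89 held 25 A, 27 D and 37 newGene IDs and lay on 18 chromosomes, with at most 6 on one of them (A02). The newGene loci make up 8125 of all 70422 IDs. The larger sets held 86 A, 110 D, 80 newGene and 3 contig IDs among those on, with at most 13 on one chromosome (D06), and 51 A, 48 D, 70 newGene and 2 contig IDs among those off, with at most 10 on one chromosome (D05). The control libraries were all listed at 0 in 55 of the 179, and the silenced libraries in 31 of the 89. The members were mostly of modest level, with a median of 5.30 FPKM in silenced libraries for those on and of 4.25 FPKM in controls for those off.

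The 3798 libraries played no part in the choice of these genes, and many of the genes were switched the same way there. Of the 179 genes on in JX silenced libraries, 101 (56.4%) met the same definition in 3798, where 164 of all IDs (0.233%) did, and 67 of the 89 genes off in JX silenced libraries (75.3%) did so, where 148 of all IDs (0.21%) did. The 3798 groups did not overlap, with silenced above control, in 163 of the 179 (91.1%), and in 87 of the 89 with silenced below control (97.8%), against 8.65% and 7.19% of all genes tested in JX. Of the sets defined without JX silenced 4, 42.7% of the 279 on and 73.1% of the 171 off met the definition in 3798. There the groups did not overlap in the same direction in 225 (80.6%) and 161 (94.2%). In all of these sets, 0 genes were switched the other way in 3798. These counts rest on the labels of both strains alike and, as the members were chosen for extreme values in JX, describe these libraries only.

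The place of JX silenced 4 was measured in genes that were called without it. For each library in turn, genes that changed by 2-fold or more in the fit without that library were taken, and the library was placed between the control mean (0) and the silenced mean (1) of the others on the log2 scale. The silenced mean for silenced libraries 1 to 3 includes JX silenced 4, which tends to raise their positions. The genes also differ between libraries, so the positions are not on 1 common scale. Silenced libraries 1, 2 and 3 had a median position of 1.001, 1.02 and 1.25 and controls 1 to 4 of 0.070, 0.102, -0.062 and 0. JX silenced 4 had a median of 0.551 over 5522 genes. It lay under 0.25 in 14.7% of them, between 0.25 and 0.75 in 57.9% and over 0.75 in 27.4%, whereas silenced libraries 1 to 3 lay over 0.75 in 84.5%, 86.7% and 92.2%. JX silenced 4 thus lay between 0.25 and 0.75 in most of its genes, and under 0.25 in a minority.

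**Figure D3:**
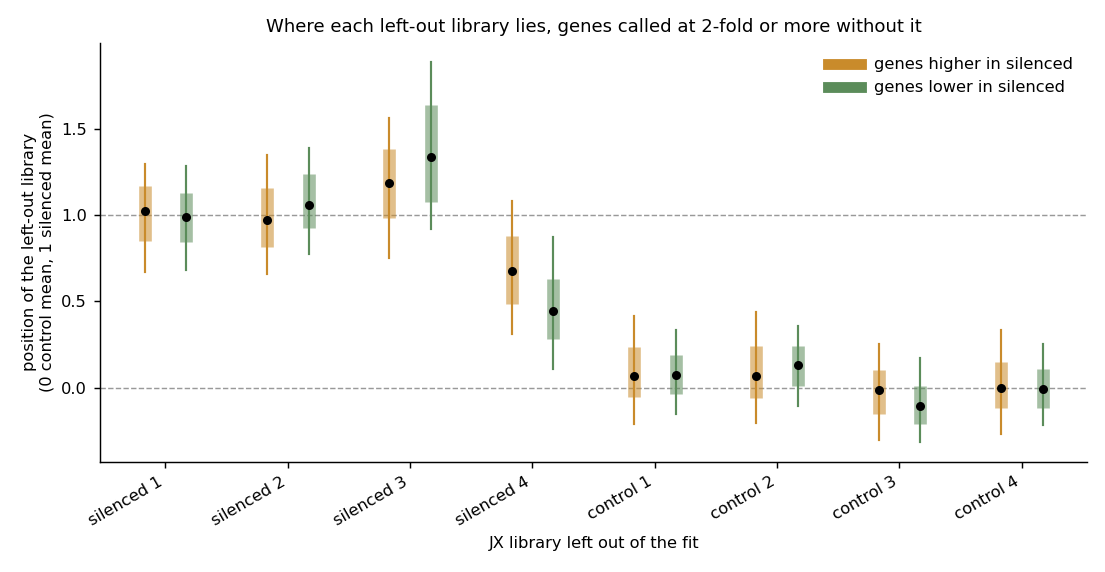
Position of each JX library left out of the fit, for genes called at 2-fold or more without it, where 0 is the control mean and 1 the silenced mean of the other libraries on the log2(FPKM + 0.5) scale. Points are medians over genes, thick bars quartiles and thin lines the 10th to 90th percentile, for genes higher (ochre) and lower (green) in silenced libraries; JX silenced 4 has medians of 0.677 and 0.446.

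The position of JX silenced 4 differed with the direction and the level of the gene. Genes that were higher in the other silenced libraries had a median of 0.677 (2664 genes) and those that were lower a median of 0.446 (2858 genes). For levels, the mean FPKM over the JX libraries other than JX silenced 4 was used here. The gap was widest in genes at 100 FPKM or more, where 32 higher genes had a median of 0.685 and 60 lower genes one of 0.137. In genes under 1 FPKM the medians were 0.748 (411 higher) and 0.499 (248 lower). Among newGene loci they were 0.807 (293 higher) and 0.516 (206 lower), against 0.653 and 0.440 on A and 0.671 and 0.442 on D chromosomes. By chromosome the median ran from 0.465 on A13 to 0.583 on D04, so the library lay between the groups on each of the 26 chromosomes. Position was counted per gene, and genes of 1 library are not independent. On the log2 scale a library midway in FPKM lies nearer the silenced mean in rises and nearer the control mean in falls. The part of the scale in the gap between directions was not tested.

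The genes switched between silenced libraries 1 to 3 and the controls separated into kinds in JX silenced 4. Of 171 genes off in silenced libraries 1 to 3, 83 were under 5% of their control level in JX silenced 4 (48.5%), 15 were at 5 to 20% and 73 at 20% or more (42.7%). Those 73 had a median of 47.3% of the control level in JX silenced 4, and 53 of them were under 5% of the JX control level in all 4 silenced libraries of 3798. In the 83 genes that stayed under 5%, 68 were so in all 4 silenced libraries of 3798. Both kinds held newGene and chromosome IDs in like numbers, 32 and 39 among the 73, and 37 and 46 among the 83. Of 279 genes on in silenced libraries 1 to 3, only 13 were under 5% of that level in JX silenced 4 and 148 reached 50% or more (53.0%), with a median of 52.7%. In this library the genes off in the others were thus mostly either near 0 or well above it, and the genes on in the others spread over all levels.

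**Figure D4:**
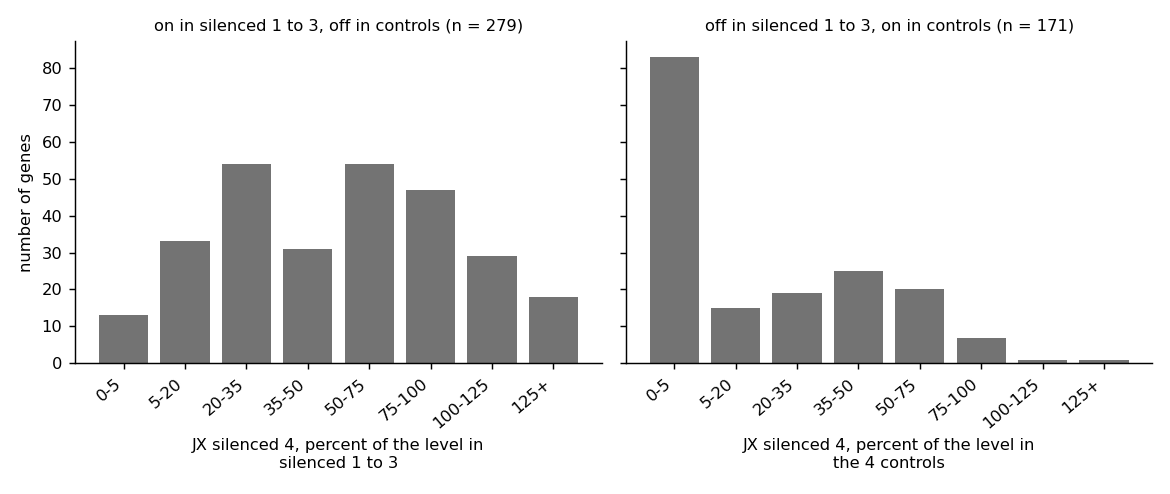
Number of genes by the level in JX silenced 4, as a percent of the mean of silenced libraries 1 to 3 for 279 genes on in those libraries (left) and of the 4 controls for 171 genes off in them (right), in classes of unequal width. On the right 83 genes lie under 5% and 15 at 5 to 20%, and on the left 13 lie under 5%.

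In a few strongly changed genes JX silenced 4 was at the control level itself. Without that library 1042 genes changed by 4-fold or more. JX silenced 4 was within 0.1 of the control mean on the scale of positions in 19 of them, 6 higher and 13 lower in the other silenced libraries, and within 0.1 of the silenced mean in 215. Gh_D09G100800, on chromosome D09, was at 39.9, 100.3 and 149 FPKM in silenced libraries 1 to 3 and at 2.73 FPKM in JX silenced 4, against 2.17, 3.02, 3.14 and 2.78 FPKM in controls. Gh_A08G062700, on chromosome A08, was at 5.21, 12.3, 9.004 and 1.60 FPKM in silenced libraries 1 to 4, against 1.54, 2.36, 1.18 and 1.41 FPKM in controls. In each, JX silenced 4 lay inside the range of the controls and the other silenced libraries lay above it.

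The corresponding falls were smaller in level. Gh_A12G150900, on chromosome A12, was at 2.64, 1.54, 1.42 and 9.15 FPKM in silenced libraries 1 to 4, against 10.9, 6.70, 11.4 and 8.40 FPKM in controls. Gh_A10G037300, on chromosome A10, was at 1.94, 2.04, 0.893 and 8.82 FPKM in silenced libraries, against 16.9, 8.71, 10.4 and 4.25 FPKM in controls. These genes were picked for the value of JX silenced 4, which is therefore a description. With all 8 libraries the log2 changes of the 4 genes were 3.53, 1.57, -1.55 and -1.67 (limma adjusted p = 0.0488, 0.0422, 0.0384 and 0.0693), so that Gh_A10G037300 did not pass and the other 3 passed narrowly. The calls of Gh_D09G100800 and Gh_A08G062700 were lost when any 1 JX library other than JX silenced 4 was left out, and that of Gh_A12G150900 when any but JX silenced 4 or JX control 2 was. Quantile normalization ended the first 2 of these calls, and a pseudocount of 0.1 or median-ratio scaling that of Gh_D09G100800. The change of Gh_D09G100800 ranged from 2.86 without JX silenced 3 to 4.70 without JX silenced 4. Without JX silenced 4 they were 4.70, 2.09, -2.07 and -2.22 (limma adjusted p between 1.73e-04 and 0.00453).

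Set on the same scale from JX control (0) to JX silenced (1), silenced libraries 1 to 3 of 3798 lay at the JX silenced mean, while its silenced library 4 and its controls 1, 2 and 4 lay between the JX groups. Over the 5522 genes called at 2-fold or more in JX without JX silenced 4, 3798 silenced 1 to 3 had medians of 1.03, 1.02 and 1.03, and 3798 silenced 4 one of 0.677. The 3798 controls 1, 2 and 4 had medians of 0.593, 0.538 and 0.644 and 3798 control 3 one of 0.147. In the controls 1, 2 and 4 the genes that fell in JX were near the JX silenced level, with medians of 0.873, 0.774 and 0.897, and those that rose in JX were nearer the JX control level, at 0.401, 0.387 and 0.461. The libraries numbered 4 of both silenced groups were thus the lowest of their group, and 3798 control 3 lay near the JX controls.

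**Figure D5:**
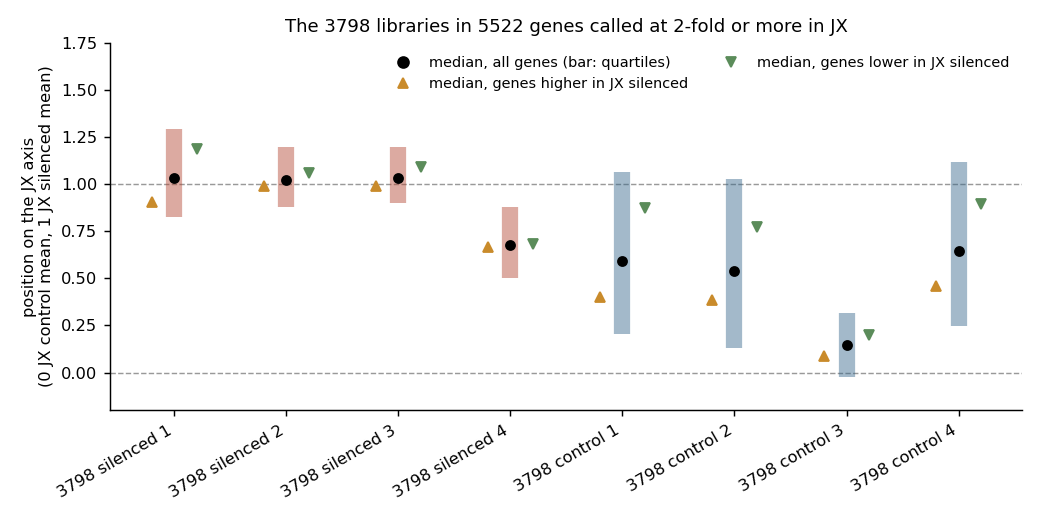
Position of each 3798 library, silenced (red bars) left of control (blue bars), between the mean of the JX controls (0) and of JX silenced 1 to 3 (1) for 5522 genes called at 2-fold or more in JX. Circles are medians and bars quartiles, and triangles are medians of genes higher (up) or lower (down) in JX silenced; 3798 silenced 4 has a median of 0.677 and 3798 control 3 of 0.147.

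A test of whether the change on silencing was larger or smaller in JX than in 3798, the interaction, used all 16 libraries. Of 55040 genes 2 passed (0.00363%, limma adjusted p under 0.05), 1 in each direction (0.00182% each), with 11946 at an unadjusted p under 0.05. Without 3798 control 3, 8582 passed (15.6%), in 3665 of which (6.66%) the change was higher in JX and in 4917 (8.93%) lower, and without JX silenced 4, 18 passed. With all 16 libraries kept, but weighted by their spread around the group means in these same data, 10210 passed. The number of genes with a different response in JX is thus not settled by these data. Gossypium_hirsutum_newGene_8863, the gene with the higher change, was at 10.7, 11.7, 11.7 and 10.7 FPKM in JX silenced libraries, against 7.04, 7.40, 7.90 and 8.19 FPKM in JX controls. In 3798 it was at 8.62, 9.86, 9.80 and 8.33 FPKM in silenced libraries and 13.1, 11.9, 12.8 and 11.02 FPKM in controls, with groups apart in opposite directions. The difference in log2 change, JX minus 3798, was 0.92 (SE 0.119, limma adjusted p = 0.0293).

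The other gene, Gh_A05G057400 of chromosome A05, was more abundant. It had 86.5, 85.7, 75.4 and 86.4 FPKM in JX silenced libraries, against 156, 142, 215 and 152 FPKM in JX controls, and at 102, 114, 99.9 and 117 FPKM in 3798 silenced libraries, against 89.4, 80.6, 96.9 and 81.5 FPKM in 3798 controls. The difference in log2 change was -1.28 (SE 0.168, limma adjusted p = 0.0293), and in JX alone the change was -0.97 (SE 0.135, limma adjusted p = 8.99e-04). Both calls were lost when any 1 of 9 libraries was left out, namely JX silenced 2 or 3, JX control 1, 3798 silenced 2, 3 or 4, and 3798 control 1, 2 or 4. The call of newGene_8863 was also lost without JX control 2 or 3. Leaving out genes already named, the gene next in p in each direction was Gh_A07G004200, with a difference of 0.93, and Gh_Contig00435G000100, with one of -1.77. They missed the threshold (limma adjusted p = 0.0776 for both) and passed it without 3798 control 3 (limma adjusted p = 0.00232 and 0.00334). In JX, Gh_Contig00435G000100 was at 3.35, 2.16, 2.71 and 4.35 FPKM in silenced libraries, against 6.25, 6.71, 8.01 and 7.32 FPKM in controls.

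Among the genes with large changes in JX, the values in 3798 took several forms. Gh_D05G386600 had the same contrast there, at 1.53, 1.46, 1.59 and 2.20 FPKM in 3798 silenced libraries, against 60.2, 57.6, 82.1 and 63.1 FPKM in 3798 controls. In its neighbour Gh_D05G386700, 3798 control 2 was at 0.663 FPKM, below every 3798 silenced library. Gh_D10G210000 was at 5.56, 10.4, 7.05 and 38.4 FPKM in 3798 silenced libraries, against 23.1, 38.6, 198 and 15.7 FPKM in 3798 controls. Its 3798 groups thus overlapped, as did those of Gh_D10G052800 and Gh_A07G233200. Gossypium_hirsutum_newGene_6990 was at 185, 203, 221 and 137 FPKM in 3798 silenced libraries, against 75.9, 38.1, 26.1 and 44.3 FPKM in 3798 controls, each of which was above every JX control. Its difference in log2 change, JX minus 3798, was 3.39 (SE 0.519, limma adjusted p = 0.0776, and 0.00185 without 3798 control 3). Gh_D09G100800, in which JX silenced 4 was at the control level, was at 51.2, 89.6, 74.3 and 28.96 FPKM in 3798 silenced libraries, against 117, 144, 6.81 and 140.05 FPKM in 3798 controls. In that gene 3 of the 4 controls of 3798 were thus high and 3798 control 3 was low. These genes were picked for their values in JX or after their values were seen.

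The changed genes were spread over the whole genome. Called genes made up 29.7% of A and 30.3% of D chromosome IDs, with 938 higher and 916 lower at 2-fold or more on A chromosomes, and 1035 higher and 1007 lower on D chromosomes. By chromosome the share called ran from 27.7% on A08 to 32.5% on D05, close to the 29.2% over all tested genes. Without JX silenced 4 it ran from 35.6% on A08 to 40.4% on D10. Loci called newGene were called less often, 21.8%, and of these calls more were higher than lower, 14.4% against 7.44% of the loci tested. At 2-fold or more 258 newGene loci were higher and 172 lower in silenced libraries.

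The newGene loci held a larger share of total FPKM in each silenced library than in any control, though this did not pass with 7 measures tested. A share of FPKM is weighted by gene length and is not a share of fragments. They held 4.42%, 4.52%, 4.15% and 4.27% of total FPKM in silenced libraries 1 to 4, against 3.74%, 4.05%, 3.67% and 3.78% in controls. The difference in means was 0.528 percentage points (exact two-sided permutation test, p = 0.0286, the smallest that 4 against 4 can give, adjusted p = 0.12). The difference was 0.551 percentage points without JX silenced 4 (exact permutation p = 0.0571, the smallest that 3 against 4 can give, adjusted p = 0.2). The D chromosomes held 47.6% ± 0.184 in silenced libraries and 48.02% ± 0.205 in controls (SD, n = 4 each, exact permutation p = 0.0571, adjusted p = 0.12), and the A chromosomes 46.8% ± 0.0521 and 46.8% ± 0.107 (exact permutation p = 0.457). Silenced libraries had 7141, 8028, 7015 and 6976 IDs listed at 0, against 8028, 8812, 7833 and 8631 in controls (exact permutation p = 0.0857, adjusted p = 0.12). Relative depth, given above, also varied among these libraries, and its part in the number of IDs at 0 was not tested.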

How the data were processed

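The authors deposited 1 table of FPKM for 70422 gene IDs in 16 libraries. FPKM as the unit follows from the title of that table and its range. No source used here gives the aligner, counter, build, annotation or strand setting. Reads of near-identical A and D copies, or of overlapping genes on opposite strands, may have been split or joined. Per the labels' protocols, RNA came from a plant RNA kit and libraries followed Illumina's standard procedure. Columns were matched to samples by the code in each description, groups and replicate numbers come from the titles, and 0 pairs of libraries were identical.

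JX silenced and JX control libraries were compared with limma 3.58.1 in R 4.3.3 on log2(FPKM + 0.5), with a trend in the prior variance, robust estimation and Benjamini-Hochberg adjustment over all 52660 genes (threshold 0.05, two-sided). Only the 8 JX libraries were fitted, and the interaction used all 16. No count model was used, since FPKM are not counts. The procedure was tested on simulated data with noise drawn independently for each gene and library. That test does not cover a library displaced in many genes at once, as JX silenced 4 was. Relative depth is the most frequent ratio between libraries in genes under 0.5 FPKM. Per-library measures were compared by exact permutation tests (Python 3.11.15, scipy 1.17.1, numpy 2.4.6, pandas 2.3.3, matplotlib 3.10.9).

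Genes named are at most 2 that rose and 2 that fell of each kind: smallest p with groups apart, largest graded change, largest change at a mean of 100 FPKM or more, JX silenced 4 nearest the controls, and smallest interaction p, passing over a gene already named. Genes of runs and all definitions of switches, positions and runs were chosen after values were seen. The libraries, genes and lists were chosen with earlier results of these data known. Matching to the 99454 genes of RefSeq (assembly Gossypium_hirsutum_v2.1) succeeded for 0 IDs, so no gene list was tested and no sequence is shown. Alternatives were other pseudocounts, filters, scalings, fits, library weights, a replicate block and each library left out.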

Additional observations from a re-analysis of the deposited data

Results flagged for a closer look

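Within groups of 4 libraries, 62 sets of values were checked for a library far from the other 3, and 9 were found, where chance gives about 5%. JX silenced 4 accounts for 4 of them. It held 58 genes seen in it alone, that is at 1 FPKM or above in it with all other 15 libraries over 8-fold below, where the next of its group had 9. It was the lowest of its group for Gh_A09G027500, at 27.9 FPKM with the next at 34.03, and the highest for Gh_A12G150900, at 9.15 FPKM with the next at 2.64, and for Gh_A10G037300, at 8.82 FPKM with the next at 2.04. The last 2 genes were named for this value of JX silenced 4, so the 5% does not hold for them.

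JX control 1 stood above the other controls for Gh_D05G286900, at 8.31 FPKM with the next at 1.78, and for Gh_D06G211100, at 9.35 FPKM with the next at 1.06. JX control 3 was at 0.0434 FPKM for Gh_A09G027500, where the other controls were listed at 0 and any value would stand out. JX silenced 3 was lowest of its group for Gh_A05G057400, at 75.4 FPKM with the next at 85.7. JX silenced 2 had 8028 IDs listed at 0, with the next at 7141, and the lowest relative depth of its group, 0.921. The part of depth in that value was not tested.

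With all 16 libraries, 2 genes named above passed limma's test of the interaction. Both calls were lost under the replicate block and with any 1 of several libraries left out, as given above. The difference in log2 change, JX minus 3798, was 0.92 for Gossypium_hirsutum_newGene_8863 and -1.28 for Gh_A05G057400.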

How the results depend on the processing

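The count of genes called in JX stayed within 1.5 times of 15354 under other pseudocounts, filters, scalings, fits and weights, at 14168 to 19727, and was 7800 at an adjusted p under 0.01. Leaving out 1 JX library gave 11229 (without JX control 3) to 19285 (without JX silenced 4), and at 2-fold or more 3713 to 5522. For the interaction, leaving out 1 library gave 0 to 8582 genes, library weights gave 10210 and the replicate block 0. The 7 settings with 0 genes by limma had 9284 to 11530 at an unadjusted p under 0.05.

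Replicate numbers gave no clear pairing of the libraries, though this check cannot exclude one. Deviations of same-numbered silenced and control libraries correlated at 0.0636, 0.135, -0.0380 and 0.0364, and 3 of 8 libraries correlated best with their own number. The replicate block called 14376 genes (4342 at 2-fold or more), against 15354 (4383), and no count for JX moved by over 1.5 times with it. Under the block, Gh_D09G100800 and Gh_A12G150900 and both interaction genes missed the threshold.

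Without JX silenced 4 the called shares rose to 37.7% on A and 38.1% on D chromosomes, 25.7% of newGene and 31.6% of contig IDs, and, from the lowest to the highest class of mean FPKM, to 29.2%, 32.3%, 38.3%, 50.7% and 61.1%. The share of lower IDs with a lower next ID was then 8.18%. With genes at 4-fold or more the median position of JX control 2 was 0.00184, against 0.102 at 2-fold. Over the 20 named genes, 0 of 328 settings turned the direction, 54 lost the call (45 of them with a library left out) and 11 gained it, and 11 genes kept their call in every setting. Depth is unknown, so no limit from counting error can be given.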
